A study of Mus musculus with 12 samples.

Results

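Trim30a, Trim21, Trim25 and Trim26 are 4 genes of the tripartite motif (TRIM) family with known roles in antiviral defence. They were followed in mouse embryonic fibroblasts treated with the kinase inhibitor AMN107 and with interferon. The 4 genes were chosen with earlier results of these data known, so their counts below are a description. Within these genes the probe sets were taken by annotation and not by their values. All 9 probe sets that name 1 of these 4 genes alone were included, out of 45101 probe sets on the array and 18193 genes with a probe set of their own. Trim30a and Trim21 had 2 probe sets each, Trim25 had 3 and Trim26 had 2. A further probe set that names Trim30a together with Trim30d was left out of the tests. RNA came from cultures in 6 groups of 2 arrays: a solvent control (DMSO), interferon alone (IFNa or IFNg), drug alone (AMN107), and the drug with either interferon (AMN107-IFNa or AMN107-IFNg). The drug, also known as nilotinib, blocks the ABL tyrosine kinases and a few other kinases, and the study asked what it does to the expression of interferon response genes. Interferon alpha (IFNa) or gamma (IFNg) was given for the last 6 h in the 4 groups named for it, after AMN107 where both were used. No genotype, embryonic age, dose or length of AMN107 treatment is given in the labels, which speak of biological replicates without naming separate cultures or embryos.

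TRIM proteins carry a RING domain that makes most of them E3 ubiquitin ligases, followed by B-box and coiled-coil regions and, in many members, a carboxy-terminal domain that recognises the target. Interferons signal through JAK kinases to DNA elements near their target genes, mainly the interferon-stimulated response element (ISRE) for IFNa and the gamma-activated site (GAS) for IFNg. Many TRIM genes are themselves interferon-induced, and their products act both on viruses and on the sensors and kinases that lead to interferon production.

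The cells had the profile of fibroblasts by part of the marker list: 9 of 13 fibroblast genes were detected well enough to be tested, with a vimentin (Vim) signal of 2786 to 4816, while Thy1, Fbln2, Postn and Lum never passed the array median. The summed fibroblast signal was 9567 to 11679 on the 6 arrays without AMN107 and 7110 to 7369 on the 6 arrays with it. Of the 9 genes, 3 were lower with AMN107 than with DMSO, Col3a1 (-2.31), Pdgfrb (-1.29) and S100a4 (-1.22, log2 differences), Fn1 was higher (0.65), and the other 5 did not pass. The 5 epithelial markers summed to 122 to 158 without AMN107 and 94.5 to 120 with it, and both tested ones were lower with AMN107. The 10 leukocyte markers on the array summed to 188 to 255 in all groups, highest in DMSO. The pan-leukocyte gene Ptprc stayed at 3.94 to 5.2, against array medians of 20.6 to 22.7. Of the 10 markers, 3 lay above the median on every array and 5 on none. The 4 that could be tested were Csf1r, Cd3e, Laptm5 and Cd68. Csf1r (-0.27) and Laptm5 (-0.31) were lower with AMN107 than with DMSO, while Cd3e and Cd68 did not pass. Against DMSO, Csf1r (-0.36) and Cd3e (-0.37) were lower with IFNa, and none of the 4 passed with IFNg. Among the fibroblast genes, Col3a1 was higher with IFNa (0.58), and with IFNg Vim was higher (0.64) and Pdgfrb lower (-0.69). No other fibroblast gene passed with interferon alone. The part of these marker differences in the results below was not tested, and in RNA from whole cultures fewer cells of a type and less RNA per cell cannot be told apart. IFNa replicate 2 stood apart: its GAPDH 5'/3' control ratio was 0.0252 against 1.07 to 1.16 on the other 11 arrays. The standard deviation of the difference between the 2 arrays over the tested probe sets was 0.435 for IFNa and 0.131 to 0.157 for the other 5 groups. The comparisons with the IFNa group below are therefore also given without this array. Without it the IFNa group is 1 array, assumed to vary like the others.

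The start regions of 3 genes are shown because Trim30a and Trim21 rose with interferon alone and Trim26 rose with IFNg in AMN107-treated cells, and because the letters there differ between them. All 4 genes matched the RefSeq promoter table (GRCm38.p6), which spans 250 bases before to 50 bases after a start site. The ISRE core was searched as GAAA, any 2 letters, GAAA, and the GAS as TTC, any 3 letters, GAA, both on either strand; matches were allowed to overlap. Among all 32851 windows of that length, 3.44% held the ISRE core and 8.3% held the GAS. Capitals mark the ISRE core matches, and each sequence is written 5′ to 3′ on the strand of its gene: Trim30a, chr7:104465144-104465443, minus strand; Trim21, chr7:102565433-102565732, minus strand; Trim26, chr17:36836896-36837195, plus strand.
Trim30a: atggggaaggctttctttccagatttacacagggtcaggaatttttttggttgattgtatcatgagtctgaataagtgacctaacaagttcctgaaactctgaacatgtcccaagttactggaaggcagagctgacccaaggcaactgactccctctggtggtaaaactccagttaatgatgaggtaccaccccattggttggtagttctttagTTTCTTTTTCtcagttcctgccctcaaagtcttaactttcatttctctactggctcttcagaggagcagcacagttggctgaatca
Trim21: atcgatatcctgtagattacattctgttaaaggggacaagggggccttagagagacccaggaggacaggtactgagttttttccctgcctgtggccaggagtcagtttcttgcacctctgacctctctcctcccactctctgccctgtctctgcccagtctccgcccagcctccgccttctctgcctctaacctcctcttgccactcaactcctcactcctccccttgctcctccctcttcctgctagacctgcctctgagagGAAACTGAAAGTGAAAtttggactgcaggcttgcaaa
Trim26: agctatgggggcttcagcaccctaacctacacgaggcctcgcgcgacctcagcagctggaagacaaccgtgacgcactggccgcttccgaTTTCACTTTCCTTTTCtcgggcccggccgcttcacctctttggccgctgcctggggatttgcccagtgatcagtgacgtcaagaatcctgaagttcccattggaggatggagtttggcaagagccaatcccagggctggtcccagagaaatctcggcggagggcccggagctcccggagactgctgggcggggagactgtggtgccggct
With the start site counted as 1, the Trim30a match ran from -36 to -27. Trim21 held 2 overlapping matches just after the start site, from 14 to 23 and from 20 to 29. Trim26 held 2 overlapping matches farther upstream, from -160 to -151 and from -154 to -145. A second annotated start of Trim30a, chr7:104446076-104446375, held the same 10 letters from 3 to 12. The Trim25 window, chr11:88999153-88999452 on the plus strand, held no match to the ISRE core, and none of the 5 windows held the GAS. Such a match is a string of letters and was not tested as a binding site. The gene bodies lie on GRCm38.p6 at 104409025 to 104465193 (Trim30a) and 102557920 to 102565482 (Trim21) of chromosome 7, 88999403 to 89020294 of chromosome 11 (Trim25) and 36837123 to 36859398 of chromosome 17 (Trim26). The array's target regions within these genes were not located here.

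Trim30a encodes an interferon-inducible ligase known as a brake on inflammatory signalling, since it promotes the loss of the TAB2 and TAB3 adaptors downstream of Toll-like receptors. It was just below the array median in solvent-treated cells and well above it in all 5 other groups. On its leading probe set, 1451860_a_at, the signal was 19.4 and 18.8 on the DMSO arrays, both below the array median. It was 267 and 354 with IFNa and 162 and 157 with IFNg. It was 90.8 and 125 with AMN107 alone, 273 and 272 with AMN107-IFNa and 499 and 454 with AMN107-IFNg. Every treated array thus lay above both DMSO arrays, the drug alone gave the lowest treated level, and only the arrays of IFNa and AMN107-IFNa overlapped among neighbours in the order of means. The other Trim30a probe set, 1417961_a_at, read 22.3 and 18.1 with DMSO, 159 and 279 with IFNa, 207 and 173 with IFNg, and 100.4 and 135 with AMN107. It read 281 and 269 with AMN107-IFNa and 440.3 and 471 with AMN107-IFNg. On this probe set IFNa overlapped both IFNg and AMN107-IFNa, through the distance between the IFNa arrays. The log2 values of both Trim30a probe sets had a Pearson correlation of 0.98 over the 12 arrays, which share their groups. Trim30a belongs to a cluster of closely related genes, and whether its probes also bind RNA of Trim30d or other copies was not tested.

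Trim21 encodes the cytosolic antibody receptor that binds the constant region of antibodies on incoming viruses and directs the complex to the proteasome; it also acts on interferon regulatory factors. It started from a measurable level and was higher in every interferon or drug group on its leading probe set. On 1448940_at the signal was 58.5 and 52.2 with DMSO, 114 and 131 with IFNa, and 254 and 248 with IFNg. It was 150.5 and 171 with AMN107, 278 and 276 with AMN107-IFNa and 410.2 and 407 with AMN107-IFNg. None of the 6 groups overlapped with its neighbour in the order DMSO, IFNa, AMN107, IFNg, AMN107-IFNa, AMN107-IFNg. The other probe set, 1418077_at, read 46.0 and 34.6 with DMSO and 44.4 and 45.4 with IFNa, so these groups overlapped. It read 119 and 106 with IFNg, 75 and 95.5 with AMN107, 132 and 128 with AMN107-IFNa and 222 and 204 with AMN107-IFNg, in the same order of group means as the leading probe set. The log2 values of the 2 probe sets correlated at 0.95 over the 12 arrays, but they rose unequally. The ratio of 1448940_at to 1418077_at was 1.27 and 1.51 with DMSO, 2.58 and 2.89 with IFNa, 2.13 and 2.34 with IFNg, and 2.01 and 1.79 with AMN107. It was 2.10 and 2.15 with AMN107-IFNa and 1.85 and 1.995 with AMN107-IFNg. The ratio was thus above DMSO on all 10 treated arrays and highest on the IFNa arrays; these ratios were not tested.

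Trim26 encodes a ligase with reported roles in the signalling that leads from viral sensors to interferon. Its range was the narrowest of the 3 genes that could be tested. On 1424929_a_at the signal was 119 and 107 with DMSO, 110.3 and 138 with IFNa, and 165 and 139 with IFNg. It was 157 and 148 with AMN107, 192 and 171 with AMN107-IFNa and 248 and 227 with AMN107-IFNg. The DMSO and IFNa arrays overlapped, as did those of IFNg and AMN107, and the AMN107-IFNg arrays lay above all others. The other Trim26 probe set, 1421600_a_at, stayed below the median of every array, at 9.30 to 19.2, with its highest value on AMN107-IFNg replicate 1. Without the brightness filter its AMN107-IFNa arrays (14.5 and 14.4) were higher than its IFNa arrays (9.32 and 9.30) by 0.36 (SE 0.09, adjusted p 0.024 by limma), a difference between signals too dim to be read as a change in Trim26 RNA.

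Trim25 encodes the ligase that attaches ubiquitin chains to the RNA sensor RIG-I and can also attach the ubiquitin-like protein ISG15. None of its 3 probe sets passed the median of any array, so it was not tested. Probe set 1419879_s_at read 6.70 to 9.65, 1426415_a_at read 4.22 to 5.68 and 1425974_a_at read 2.54 to 3.71 over the 12 arrays. On 1425974_a_at the AMN107 arrays (2.91 and 2.54) lay below the DMSO arrays (3.63 and 3.53), and without the brightness filter that difference was -0.10 (SE 0.03, adjusted p 0.0484 by limma). On the other Trim25 probe sets the AMN107 and DMSO differences without the filter were 0.02 and 0.08 (adjusted p 0.878 and 0.225). Signals of this size were not read as levels of Trim25 RNA, and whether it changed was not detectable.

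**Figure D1:**
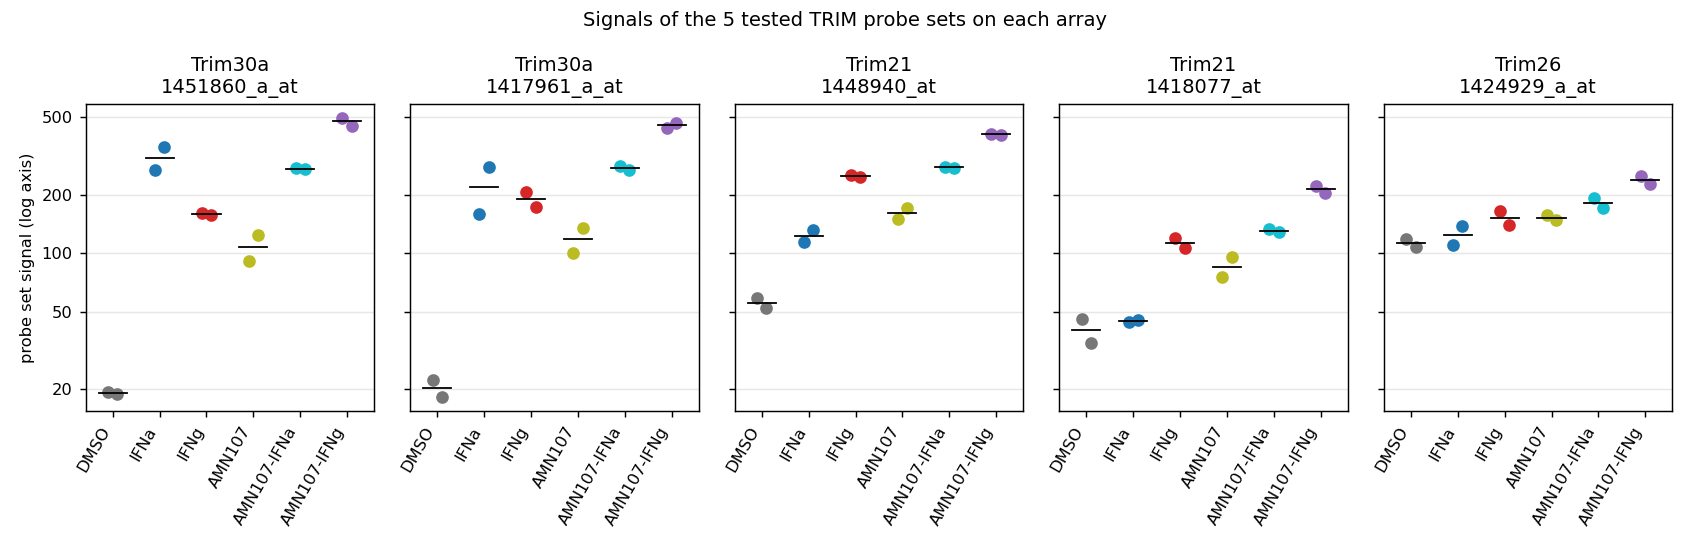
Signal of the 5 tested probe sets of Trim30a, Trim21 and Trim26 on each of the 12 arrays (vertical log axis, no unit), by treatment group; points are arrays and black lines are means of 2 arrays. The AMN107-IFNg arrays are highest in each panel, at 499 and 454 for Trim30a 1451860_a_at, and the DMSO mean is lowest.

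**Figure D2:**
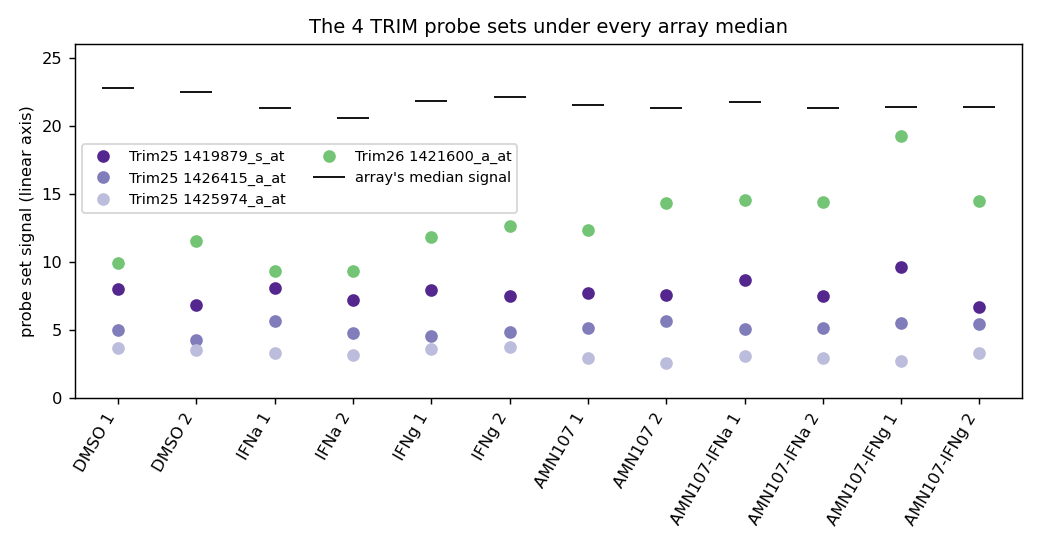
Signal (linear axis, no unit) of the 3 Trim25 probe sets and of Trim26 1421600_a_at on the 12 arrays, with black bars for each array's median signal. All points lie below the bars, the Trim25 points at 2.54 to 9.65.

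Interferon alone was compared with DMSO first. IFNa raised Trim30a about 11-fold and Trim21 about 2-fold, while Trim26 was not separated from DMSO. Differences are of log2(signal + 8.66), tested with limma over all 24363 probe sets bright enough (above the array median on at least 2 arrays), and a fold is the ratio of signal + 8.66, which understates dim genes. For IFNa 3 of the 5 tested member probe sets were higher, where 12% of all tested probe sets passed the test and 8.91% were higher. Trim30a 1451860_a_at was higher by 3.51 (SE 0.15, adjusted p 1.78e-06), an 11.4-fold difference. Trim30a 1417961_a_at was higher by 2.93 (SE 0.22, adjusted p 6.57e-05). Both Trim30a probe sets were below the median on both DMSO arrays, so they passed the brightness filter only through treated arrays. Without that filter both differences were still called by limma (adjusted p 2.6e-07 and 2.11e-05). Trim21 1448940_at was higher by 1.04 (SE 0.10, adjusted p 0.000508), or 2.05-fold. The other Trim21 probe set differed by 0.14 (adjusted p 0.454) and Trim26 by 0.12 (adjusted p 0.499), neither past the test. Without IFNa replicate 2 the values were 3.32, 2.54 and 0.94 for the 3 called probe sets, which stayed called, 0.13 for Trim21 1418077_at and -0.03 for Trim26. In a fit of the 4 arrays of this comparison alone, Trim30a 1417961_a_at (adjusted p 0.0546) and Trim21 1448940_at (adjusted p 0.198) lost their call.

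IFNg raised Trim30a and both Trim21 probe sets. In this comparison 4 of the 5 tested probe sets were higher, where 8.98% of all tested probe sets passed and 6.65% were higher. Trim30a rose by 2.60 on 1451860_a_at (SE 0.15, adjusted p 4.61e-06; 6.05-fold) and by 2.78 on 1417961_a_at (SE 0.22, adjusted p 4.51e-05). Trim21 rose by 2.02 on 1448940_at (SE 0.10, adjusted p 1.38e-06; 4.06-fold) and by 1.32 on 1418077_at (SE 0.14, adjusted p 0.000258). Trim26 differed by 0.40 (SE 0.13, adjusted p 0.0836), with both IFNg arrays above both DMSO arrays. Without both IFNa arrays, which enter only through the shared spread, Trim26 passed at the same difference (adjusted p 0.00543 by limma). Calls over all tested probe sets rose from 2189 to 7007 in that fit, so this call was not read as a result about Trim26. The IFNa, IFNg and AMN107 comparisons share the 2 DMSO arrays.

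Setting IFNg directly against IFNa separated the members: Trim21 was higher with IFNg and Trim30a was higher with IFNa on its leading probe set. In this comparison 3 of the 5 tested probe sets passed, where 14.1% of all tested probe sets did. Trim21 was higher with IFNg by 0.98 on 1448940_at (SE 0.10, adjusted p 0.000729) and by 1.18 on 1418077_at (SE 0.14, adjusted p 0.0013), or by 1.08 and 1.19 without IFNa replicate 2. Trim30a 1451860_a_at had a difference of -0.92 (SE 0.15, adjusted p 0.00815), 1.89-fold higher with IFNa. On 1417961_a_at the difference was -0.15 (adjusted p 0.665), and it was 0.24 (adjusted p 0.269) without IFNa replicate 2 but -0.54 (adjusted p 0.00861, past the test) without IFNa replicate 1, so direction and call on this probe set rested on which IFNa array was kept. Trim26 differed by 0.28 (adjusted p 0.154), or by 0.43 with an adjusted p of 0.0175 without IFNa replicate 2. The Trim30a call on 1451860_a_at held without IFNa replicate 2 (-0.72, adjusted p 0.00213) and was lost without IFNg replicate 2 (adjusted p 0.0682). In a fit of only the 4 IFNa and IFNg arrays none of the 5 passed, with adjusted p-values of 0.32 for Trim30a 1451860_a_at and 0.233 and 0.111 for the Trim21 probe sets.

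AMN107 without any interferon also raised these genes. All 5 tested probe sets were higher than with DMSO, in a comparison where 33.1% of all tested probe sets passed and 20.7% were higher. Trim30a rose by 2.05 on 1451860_a_at (SE 0.15, adjusted p 2.24e-05; 4.15-fold) and by 2.12 on 1417961_a_at (SE 0.22, adjusted p 0.000158). Trim21 rose by 1.40 on 1448940_at (SE 0.10, adjusted p 1.96e-05; 2.65-fold) and by 0.94 on 1418077_at (SE 0.14, adjusted p 0.000904). Trim26 rose by 0.41 (SE 0.13, adjusted p 0.0357; 1.33-fold). The Trim26 call was lost with quantile normalization (0.21, adjusted p 0.205) and without any 1 of 6 arrays: DMSO replicate 1 or 2, AMN107 replicate 1 or 2, or AMN107-IFNg replicate 1 or 2, with adjusted p-values of 0.0521 to 0.17. All AMN107 arrays also had the lower fibroblast and epithelial marker sums given above, and a GAPDH 5'/3' ratio of 1.12 to 1.16 against 1.07 to 1.10 on the 5 other arrays without IFNa replicate 2; their part in these differences was not tested.

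Interferon was then compared within AMN107-treated cells. IFNg raised all 5 tested probe sets over AMN107 alone, where 1.78% of all tested probe sets passed and 1.74% were higher. Trim30a rose by 2.07 on 1451860_a_at (SE 0.15, adjusted p 3.94e-05; 4.21-fold) and by 1.89 on 1417961_a_at (SE 0.22, adjusted p 0.0011). Trim21 rose by 1.30 (adjusted p 6.74e-05) and 1.25 (adjusted p 0.000591) on its 2 probe sets, and Trim26 by 0.61 (SE 0.13, adjusted p 0.0448). The Trim26 call was lost in 10 of the 12 fits that left out 1 array, with adjusted p-values up to 0.398; it was kept only without IFNa replicate 1 or 2.

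IFNa in AMN107-treated cells raised 2 of the 5 tested probe sets, where 0.119% of all tested probe sets passed, each of them higher. Trim30a 1451860_a_at rose by 1.29 (SE 0.15, adjusted p 0.0235; 2.44-fold) and Trim21 1448940_at by 0.76 (SE 0.10, adjusted p 0.0315; 1.69-fold). Trim30a 1417961_a_at differed by 1.18 (adjusted p 0.128), Trim21 1418077_at by 0.58 (adjusted p 0.363) and Trim26 by 0.24 (adjusted p 1.0); in all 3 both AMN107-IFNa arrays lay above both AMN107 arrays. Calls here depended on the other arrays through the shared spread: the Trim21 call held only without IFNa replicate 1 or 2 and was lost in the other 10 fits that left out 1 array (adjusted p up to 0.53). The Trim30a call held also without AMN107 replicate 2 and was lost in 9. Without both IFNa arrays 4 of the 5 passed, while calls over all tested probe sets rose from 29 to 181.

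AMN107-IFNg arrays also lay above AMN107-IFNa arrays on all 5 tested probe sets, and 2 passed, where 0.932% of all tested probe sets did. Trim30a 1451860_a_at was higher with IFNg by 0.79 (SE 0.15, adjusted p 0.049) and Trim21 1448940_at by 0.55 (SE 0.10, adjusted p 0.0394). In cells given AMN107 the Trim30a order of the 2 interferons was thus the opposite of that without it on this probe set, a contrast that was not itself tested. Both calls were lost without pseudocount (adjusted p 0.0625 and 0.0522). Of the fits that left out 1 array, the Trim21 call held only without IFNa replicate 1 or 2, and the Trim30a call only without those or AMN107 replicate 1 or 2 (adjusted p up to 0.37 and 0.5).

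**Figure D3:**
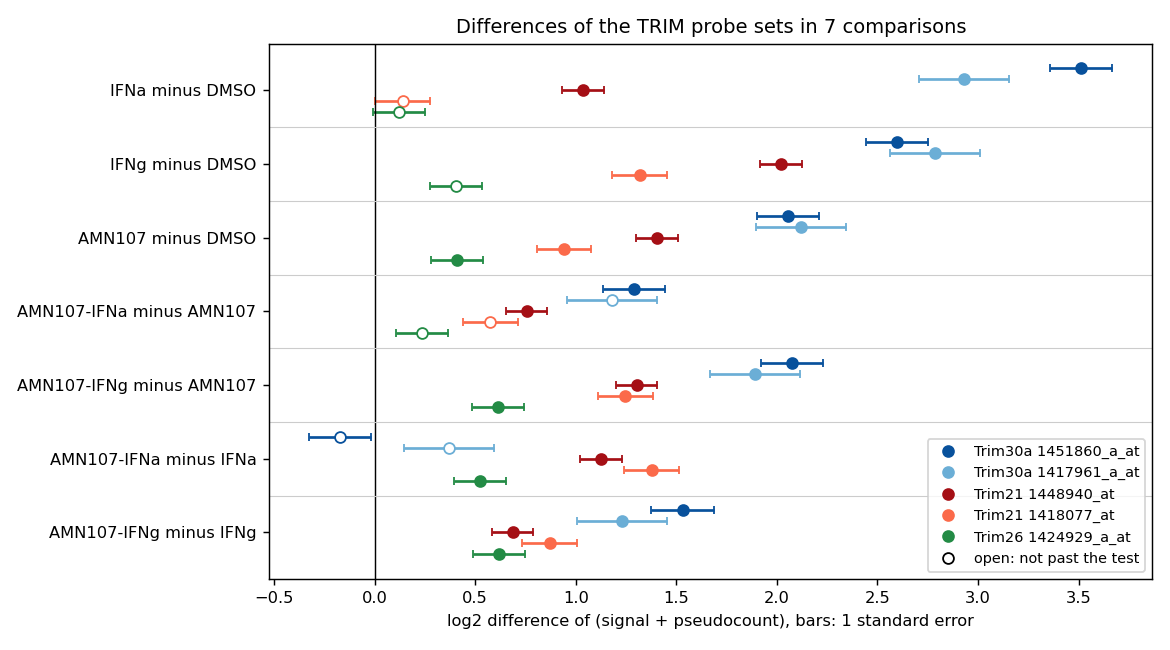
Log2 difference of signal + pseudocount (horizontal axis) in 7 comparisons for the 5 tested probe sets, with bars of 1 standard error from limma and open points where the adjusted p was 0.05 or more. Trim30a is farthest to the right for IFNa against DMSO, at 3.51 and 2.93, and Trim26 is closest to 0 there among the called and uncalled genes, at 0.12.

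AMN107 was next compared at a constant interferon. With IFNg, the drug raised all 5 tested probe sets, where 15.4% of all tested probe sets passed and 10.9% were higher. Trim30a was higher by 1.53 on 1451860_a_at (SE 0.15, adjusted p 0.000238; 2.89-fold) and by 1.23 on 1417961_a_at (SE 0.22, adjusted p 0.00555). Trim21 was higher by 0.69 on 1448940_at (adjusted p 0.00207) and by 0.87 on 1418077_at (adjusted p 0.00257), and Trim26 by 0.62 (adjusted p 0.0107). Without IFNg replicate 2 the calls of Trim30a 1417961_a_at (1.10, adjusted p 0.0545) and Trim26 (0.50, adjusted p 0.0923) were lost, and without AMN107-IFNg replicate 1 that of Trim26 (0.55, adjusted p 0.105).

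With IFNa, the drug raised Trim21 and Trim26 but left Trim30a 1451860_a_at without a called difference. Here 3 of the 5 tested probe sets were higher, where 24.1% of all tested probe sets passed and 11.2% were higher. Trim21 was higher by 1.12 on 1448940_at (SE 0.10, adjusted p 0.000124; 2.18-fold) and by 1.38 on 1418077_at (SE 0.14, adjusted p 0.000176; 2.60-fold). Trim26 was higher by 0.52 (SE 0.13, adjusted p 0.0159), a call lost without AMN107-IFNa replicate 1 (0.44, adjusted p 0.126), with array weights (adjusted p 0.156) and in a fit of the 4 arrays alone (adjusted p 0.202). Trim21 1448940_at also lost its call in the 4-array fit (adjusted p 0.0739). These 3 differences were 1.22, 1.39 and 0.67 without IFNa replicate 2, all past the test. Trim30a differed by -0.17 on 1451860_a_at (SE 0.15, adjusted p 0.463; 95% interval -0.51 to 0.17) and by 0.37 on 1417961_a_at (adjusted p 0.266). Without IFNa replicate 2 these were 0.03 (adjusted p 0.913) and 0.76 (adjusted p 0.00136), so the second probe set passed and the first did not. Without IFNa replicate 1 they were -0.37 (adjusted p 0.0348), a call as lower with AMN107, and -0.02 (adjusted p 0.92).

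The last comparison asked whether an interferon response differed with and without AMN107, as the response with the drug minus the response without it. For IFNa, the Trim30a response was smaller in AMN107-treated cells: 3.51 above DMSO without the drug and 1.29 above AMN107 with it. The difference was -2.23 on 1451860_a_at (SE 0.22, adjusted p 0.00277), the only 1 of the 5 tested probe sets to pass, where 0.152% of all tested probe sets did. Trim30a 1417961_a_at gave -1.75 (SE 0.32, adjusted p 0.106). Without IFNa replicate 2 the values were -2.03 (adjusted p 1.74e-05) and -1.36 (adjusted p 0.00284), both past the test. Trim21 gave -0.28 (adjusted p 0.273) and 0.44 (adjusted p 0.227) on its 2 probe sets and Trim26 gave 0.12 (adjusted p 0.701); without IFNa replicate 2 these were -0.19, 0.45 and 0.27, none past the test. The 1451860_a_at call was lost in a fit of the 8 arrays involved alone (adjusted p 0.0573).

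For IFNg, 1 of the 5 tested probe sets passed, where 1.38% of all tested probe sets did. Trim21 1448940_at responded by 2.02 without and 1.30 with AMN107, a difference of -0.72 (SE 0.15, adjusted p 0.0469). This call was lost in 10 of the 12 fits without 1 array (adjusted p up to 0.232) and kept without IFNa replicate 1 or 2. Trim21 1418077_at gave -0.07 (adjusted p 0.928), so the 2 probe sets differed here as well. Trim30a gave -0.52 (adjusted p 0.344) on 1451860_a_at and -0.89 (adjusted p 0.254) on 1417961_a_at. Without both IFNa arrays, which enter only through the shared spread, both Trim30a probe sets passed (adjusted p 0.0383 and 0.00293 by limma). Calls over all tested probe sets rose from 335 to 3185 in that fit, so these 2 calls were not read as a result about Trim30a. Trim26 gave 0.21 (adjusted p 0.693). These differences are of log2 values, so they compare ratios: the level itself was highest in the AMN107-IFNg arrays on all 5 probe sets.

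**Figure D4:**
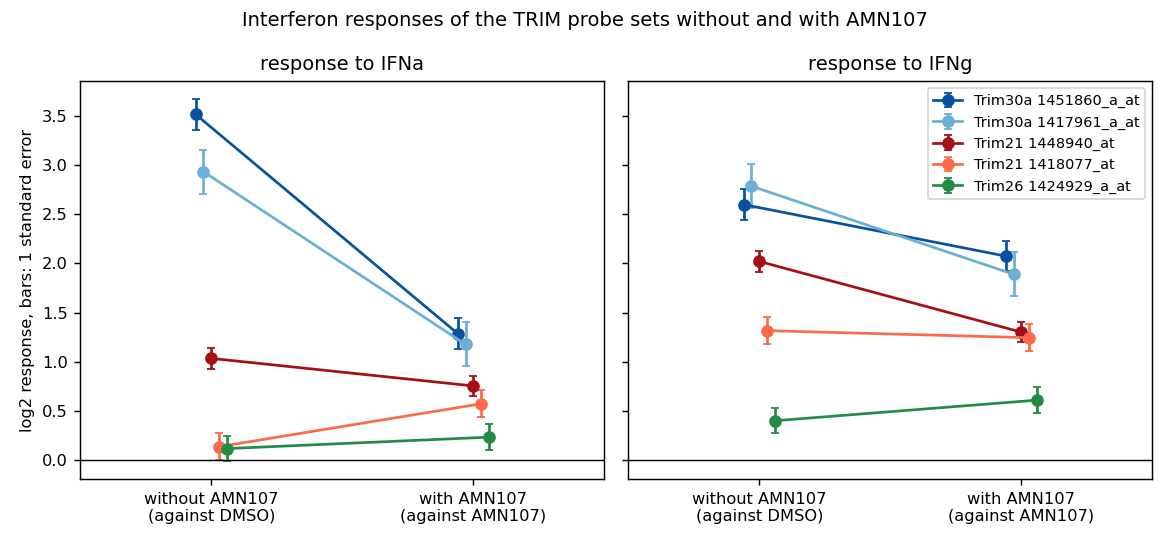
Log2 response of the 5 tested probe sets to IFNa (left) and IFNg (right), without AMN107 (against DMSO) and with it (against AMN107), with bars of 1 standard error. For IFNa the Trim30a lines fall from 3.51 to 1.29 and from 2.93 to 1.18, while the Trim21 1448940_at line runs from 1.04 to 0.76.

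The rest of the TRIM family gave the setting. Besides the members, 55 genes named Trim with a number, or Pml (TRIM19), were on the array, and 39 could be tested by their brightest probe set. Of these, 8 were higher and 0 lower with IFNa, where 8.93% of all 12192 genes were higher and 3.09% lower. With IFNg 6 were higher and 0 lower, where 5.73% of genes were higher and 2.53% lower. With AMN107 8 were higher and 4 lower, where 19.9% were higher and 13% lower. The median difference over the 39 genes was 0.10, -0.06 and -0.01 in these comparisons, against 0.04, -0.03 and 0.02 over all genes. Without both IFNa arrays the counts were 7 higher and 7 lower with IFNg, and 14 higher and 4 lower with AMN107. Calls over all tested probe sets rose as well in that fit, from 2189 to 7007 with IFNg and from 8056 to 12730 with AMN107. The changed counts were therefore not read as results about TRIM genes. The IFNa count also depended on which IFNa array was kept. Leaving out 1 DMSO, IFNg or AMN107 array lowered the IFNg or AMN107 count. In those fits calls over all tested probe sets changed over 1.5 times in 6 or 7 of the 11 comparisons. When the fit held no arrays but the 4 from IFNa and DMSO, 0 of the 39 passed. With fits of only the groups compared, calls over all tested probe sets changed over 1.5 times in all 11 comparisons.

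Trim12c, a gene of the mouse TRIM5-like group, had the largest called difference among these 39 in each of the 3 comparisons. Its signal was 62.6 and 52.3 with DMSO, 235 and 318 with IFNa, 359.8 and 425 with IFNg, 244 and 270.2 with AMN107, 337 and 421 with AMN107-IFNa, and 633 and 588 with AMN107-IFNg. As with Trim30a, DMSO was lowest and AMN107-IFNg highest. Trim12c rose by 2.10 with IFNa (adjusted p 7.44e-05; 0.0579 in the fit of those 4 arrays alone; 1.88 without IFNa replicate 2), by 2.60 with IFNg (adjusted p 7.49e-06) and by 2.01 with AMN107 (adjusted p 3.75e-05). The responses with the drug differed from those without it by -1.56 for IFNa (adjusted p 0.0375; -1.35 without IFNa replicate 2) and -1.38 for IFNg (adjusted p 0.0204). By limma the IFNa call was lost with 4 times the pseudocount (adjusted p 0.094) and with quantile normalization (0.0511). A fit of only the groups compared lost it too (0.233). The IFNa call held without IFNa replicate 1 or 2 and was lost in the other 10 fits that left out 1 array (adjusted p up to 0.271). The IFNg call held without IFNa or AMN107-IFNa replicate 1 or 2 and was lost in the other 8 (adjusted p up to 0.128).

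Trim30d, the paralog of Trim30a, rose by 1.45 with IFNa (adjusted p 0.000408; 0.07 in the 4-array fit; 1.27 without IFNa replicate 2), from 5.79 and 5.47 to 25.7 and 35.6. Its AMN107 arrays read 7.37 and 10.4, and its AMN107-IFNg arrays 37.7 and 40.4. Trim34a rose by 1.20 with IFNg (adjusted p 0.000126) and 1.01 with AMN107 (adjusted p 0.000197), from 7.48 and 7.03 on the DMSO arrays to 26.4 and 29.6, and 20.2 and 27.1. Both were thus dim without treatment, and each passed the brightness filter through treated arrays. Trim56, which takes part in antiviral sensing, rose by 0.72 with IFNg (adjusted p 0.00185), from 149 and 143 to 248 and 242. Trim14 rose by 0.93 with AMN107 (adjusted p 0.000136), from 26.5 and 27.4 to 59.2 and 59.5. Trim23 rose by 0.97 with IFNa (adjusted p 0.0447), but its arrays read 129 and 281, and without IFNa replicate 2 the rise was 0.44 (adjusted p 0.0399). This call was kept only without either IFNa array, and adjusted p was 0.0668 to 0.212 without any other. Pml, the organiser of nuclear bodies, read 133 and 118 with DMSO, 214 and 221 with IFNa, 171 and 168 with IFNg, and 213 and 224 with AMN107. Trim6 read 17.1 to 32.3 over all arrays, and Trim12a and Trim5 stayed below every array median.

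**Figure D5:**
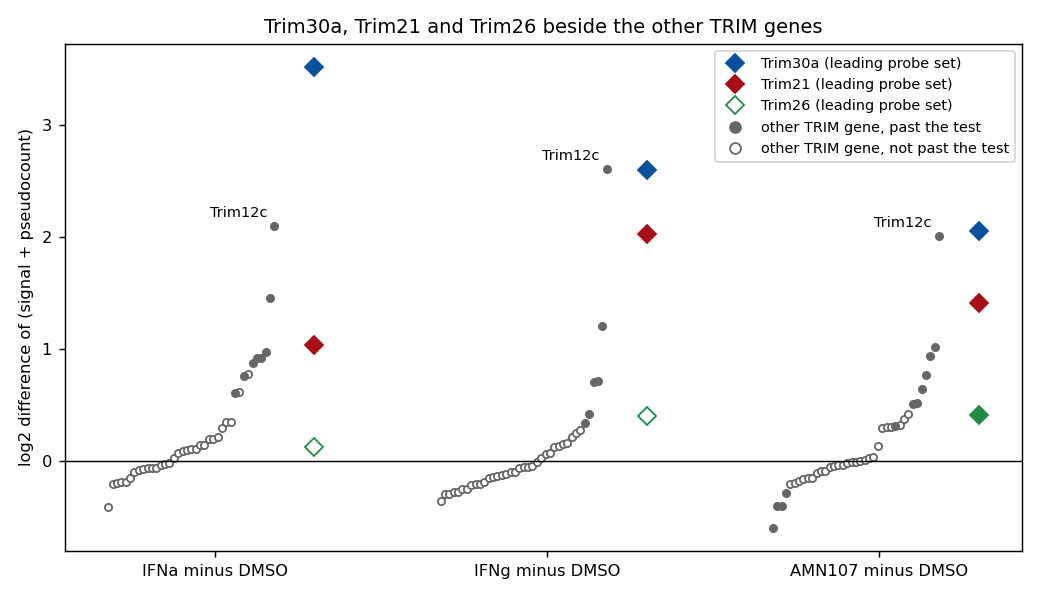
Log2 difference from DMSO (vertical axis) of 39 other TRIM genes, sorted by value within each comparison, beside the leading probe sets of Trim30a, Trim21 and Trim26 (diamonds); filled symbols passed the test. Trim12c is the highest grey point in each comparison, at 2.10, 2.60 and 2.01.

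Genes that work with the 4 proteins were followed as a list of 27 tested genes: sensors and adaptors of the RIG-I pathway, interferon regulatory factors, the ISG15 pathway, and the TAB adaptors. With IFNa 8 were higher and 1 lower, with IFNg 7 and 1, and with AMN107 8 and 1, and their median differences were 0.24, 0.09 and 0.05. The same shares of all genes apply as for the TRIM genes. Without both IFNa arrays the counts were 10 and 4 with IFNg and 11 and 5 with AMN107, in the fit where calls over all tested probe sets rose as given above. The IFNa count again depended on which IFNa array was kept, and leaving out 1 DMSO, IFNg or AMN107 array lowered counts here too. The fit of the 4 IFNa and DMSO arrays gave 2 and 0 for IFNa. Usp18, which removes ISG15 from proteins and restrains the IFNa receptor, rose by 3.70 with IFNa (adjusted p 1.5e-05), 2.37 with IFNg (adjusted p 0.000171) and 3.68 with AMN107 (adjusted p 8.26e-06). Herc6, the mouse ISG15 ligase, rose by 2.20, 1.85 and 2.36 in the same comparisons (adjusted p 2.22e-05, 3.81e-05 and 7.61e-06). The IFNa differences of Usp18, Herc6, Ddx58 and Irf7 were 3.28, 2.10, 1.20 and 1.87 without IFNa replicate 2, all past the test. Ddx58, which encodes the Trim25 target RIG-I, rose by 1.46 with IFNa (adjusted p 0.000724; 0.241 in the fit of the 4 arrays alone). Irf7 rose by 1.40 with IFNa (adjusted p 0.0168), which did not pass without DMSO replicate 1 or 2 (adjusted p 0.139 and 0.0826) or in that fit (0.35), and by 1.63 with AMN107 (adjusted p 0.00108).

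Irf8, a factor on which Trim21 is reported to act, was raised by IFNg: its signal was 19.0 and 19.2 with DMSO, 20.5 and 23.9 with IFNa, 212 and 216 with IFNg, and 15.3 and 17.5 with AMN107. The IFNg difference was 3.01 (SE 0.08, adjusted p 1.8e-08). Irf8 lay below the median on both DMSO and both AMN107 arrays, so it passed the brightness filter only through interferon-treated arrays. With AMN107-IFNg it read 105 and 107, below the IFNg arrays by a difference of -0.96 (adjusted p 0.000107), whereas each tested member probe set was higher there. Ube2l6, the conjugating enzyme for ISG15, rose by 1.96 with IFNg (adjusted p 0.00608), which did not pass when DMSO replicate 2 or IFNg replicate 1 was left out (adjusted p 0.0599 and 0.0565). Ube2w, a conjugating enzyme that acts with Trim21, rose by 1.20 with AMN107 (adjusted p 0.00259).

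The genes with the pattern most like each member were found by Pearson correlation of log2 values over the 12 arrays, as a description, since all arrays of a group share a treatment. For Trim30a these were Samd9l (0.99), Rnf213 (0.97), Ssbp2 (0.97), Mndal (0.97) and Oasl2 (0.97). For Trim21 they were Serpinb9 (0.98), Il15 (0.98), Parp14 (0.98), H2-M3 (0.98) and Fbxw17 (0.98). For Trim26 they were Xdh (0.96), Gdap10 (0.95), Jak2 (0.95), Tut7 (0.95) and Plekhf2 (0.95). Among the members, the leading probe sets of Trim30a and Trim21 correlated at 0.83, those of Trim30a and Trim26 at 0.69, and those of Trim21 and Trim26 at 0.90. Trim30a 1417961_a_at correlated at 0.91 with Trim21 1448940_at.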

How the data were processed

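Labelled RNA was hybridised to 12 Affymetrix mouse arrays. The deposited values are linear probe set intensity (signal) values, and the submitters' processing notes name MAS5 without version or settings; scaling and genome build are not given in the sources used here. Probe sets were named by the platform annotation: 34945 had 1 gene, 932 several and 9160 none, beside 64 control probe sets left out. Of these, 34741 symbols were looked up by gene ID, and 0 changed.

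Signals were taken as log2(signal + 8.66), the pseudocount being the mean over arrays of the 25th percentile. Probe sets above the array median on at least 2 of 12 arrays were tested (24363, for 12192 genes). The 12 arrays entered a single limma model (limma 3.58.1, R 4.3.3; lmFit, eBayes with trend) with group means as coefficients, 11 contrasts were tested two-sided, and p-values were adjusted by Benjamini-Hochberg over all tested probe sets (threshold 0.05). The spread is shared by all groups and comes from 2 arrays per group, so p-values measure the spread between these arrays, which may be technical; the number of arrays limits the precision. For lists, the probe set with the highest mean per gene was read. Named genes were the 3 other TRIM genes and the 4 partner genes with the largest called differences per comparison with DMSO. Also named were 12 further TRIM genes where present, Pml among them, and the 5 most correlated genes. Genes or comparisons outside that rule, such as Irf8 in AMN107-IFNg against IFNg, were named after their values were seen. The members and lists were chosen with earlier results of these data known. The fit was also run on simulated data, but the outcome is not given here. Nothing is concluded from that run, in particular about the wider spread between the IFNa arrays.

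The labels do not pair the arrays, and replicate numbers were not used in the main fit. Over 15 pairs of groups the correlation of deviations was -0.14 to 0.32. It was above 0.1 in 3 pairs: IFNa with AMN107 (0.25), IFNa with AMN107-IFNa (0.23) and AMN107 with AMN107-IFNa (0.32). It was below -0.1 in 4. Alternatives were other pseudocounts, filters, normalizations, spread models, a replicate block and leaving out arrays; list counts without single arrays were added after seeing the data.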

Additional observations from a re-analysis of the deposited data

Results flagged for a closer look

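The Trim30a response to IFNa differed between cells with and without AMN107 by a test of the difference itself: on 1451860_a_at it was 3.51 without and 1.29 with the drug, a difference of -2.23 (SE 0.22, adjusted p 0.00277). On 1417961_a_at the difference was -1.75 (adjusted p 0.106). The 1451860_a_at call was lost in a fit of only the groups compared (adjusted p 0.0573 by limma). On both probe sets the DMSO arrays lay below the array median.

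The Trim21 response to IFNg differed by the same test on 1448940_at, at 2.02 without and 1.30 with AMN107, a difference of -0.72 (SE 0.15, adjusted p 0.0469). That call was lost in 10 of the 12 fits that left out 1 array. It was also lost by limma with 4 times the pseudocount (adjusted p 0.115), without a filter (0.0677) and with the replicate block (0.0648). On 1418077_at the difference was -0.07 (adjusted p 0.928).

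The responses of Trim12c also differed with and without AMN107 by the same test, by -1.56 for IFNa (adjusted p 0.0375) and -1.38 for IFNg (adjusted p 0.0204). These calls were lost in 10 and 8 of the 12 fits that left out 1 array. By limma the IFNa call was also lost with 4 times the pseudocount (adjusted p 0.094), with quantile normalization (0.0511) and in a fit of only the groups compared (0.233). It was kept in the other settings that used all 12 arrays.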

How the results depend on the processing

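Over all alternatives, 1842 values of single probe sets and named genes were recomputed: 1647 kept direction and side of the threshold, 139 were no longer past it, 44 newly passed and 12 reversed. The reversed values belonged to differences that had not passed the test. They were, with 4 times the pseudocount, 0.00229 for Trim30a 1451860_a_at and 0.0725 for Trim21 1418077_at in the AMN107 by IFNg difference. Without 1 array the latter was -0.240 to 0.0976, above 0 without DMSO replicate 2 (0.0976), IFNg replicate 1 (0.00936) or AMN107 replicate 2 (0.0869). Trim26 against DMSO with IFNa was -0.0877 with quantile normalization and ran from -0.0289 (without IFNa replicate 2) to 0.270 (without IFNa replicate 1); its AMN107 by IFNa difference ran from -0.0336 (without IFNa replicate 1) to 0.265 (without IFNa replicate 2). Trim21 1418077_at with IFNa ran from -0.029 (without DMSO replicate 2) to 0.309 (without DMSO replicate 1). Without IFNa replicate 1 and 2, AMN107-IFNa against IFNa was -0.0212 and 0.758 for Trim30a 1417961_a_at and -0.368 and 0.0262 for 1451860_a_at, and IFNg against IFNa was -0.537 and 0.242 for 1417961_a_at.

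Counts of called member probe sets changed by over 1.5 times as follows. Causes of these changes were not tested. Some settings test fewer probe sets or hold fewer samples. Calls over all tested probe sets changed by over 1.5 times too: in all 11 comparisons with fits of only the groups compared, in 10 with array weights and in 7 without both IFNa arrays. They did so in 6 with 1 probe set per gene, in 1 without a filter, with median centring or with the replicate block, and in 0 with other pseudocounts. With 4 times the pseudocount the AMN107 by IFNg difference gave 0. Without pseudocount AMN107-IFNg against AMN107-IFNa gave 0 and AMN107 by IFNa 2. Without a filter AMN107-IFNg against AMN107-IFNa and AMN107 by IFNg gave 0, and median centring gave 0 for the former. With 1 probe set per gene, where 3 members remain, IFNg against DMSO gave 2, and AMN107 against DMSO, AMN107-IFNg against AMN107 and AMN107-IFNg against IFNg gave 3 each. Array weights gave 4 for AMN107-IFNa against AMN107, 1 for IFNg against IFNa, 5 for AMN107-IFNg against AMN107-IFNa and 2 for AMN107 by IFNg. Fits of only the groups compared gave 1 for IFNa against DMSO and for AMN107-IFNa against IFNa, 0 for IFNg against IFNa and AMN107 by IFNa, 5 for AMN107-IFNg against AMN107-IFNa and 3 for AMN107 by IFNg. Without both IFNa arrays AMN107-IFNa against AMN107 and AMN107-IFNg against AMN107-IFNa gave 4 each and AMN107 by IFNg 3. With the replicate block, AMN107-IFNa against AMN107 gave 1, and AMN107-IFNg against AMN107-IFNa and AMN107 by IFNg gave 0; the arrays share only a number, not a known pairing. Leaving out 1 array gave 3 to 3 for IFNa and 4 to 5 for IFNg against DMSO, 4 to 5 for AMN107 against DMSO, 0 to 4 for AMN107-IFNa and 4 to 5 for AMN107-IFNg against AMN107, 2 to 4 for AMN107-IFNa against IFNa, 3 to 5 for AMN107-IFNg against IFNg, 2 to 4 for IFNg against IFNa, 0 to 4 for AMN107-IFNg against AMN107-IFNa, 1 to 3 for AMN107 by IFNa and 0 to 3 for AMN107 by IFNg.

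The 2 arrays per group limit every comparison, and probe sets below the array median, including all of Trim25, were not read as RNA levels, also where they passed without the filter.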

Other observations

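The probe set that names Trim30d and Trim30a together, 1456494_a_at, was not part of the tests above. Its signal was 13 and 12.1 with DMSO, 35.6 and 88.8 with IFNa, 55.9 and 42.5 with IFNg and 25.4 and 41.9 with AMN107. It was 64.6 and 78.0 with AMN107-IFNa and 136 and 133 with AMN107-IFNg. As on the probe sets of Trim30a alone, the DMSO arrays were lowest and the AMN107-IFNg arrays highest.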
